A study of Mus musculus with 2 samples.

Results

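The genes described here encode sensors of RNA and DNA in the cytosol and endosome and the proteins that act directly behind them. They were Ifih1 (ENSMUSG00000026896), Dhx58 (ENSMUSG00000017830), Ddx60 (ENSMUSG00000037921), Tlr3 (ENSMUSG00000031639), Mavs (ENSMUSG00000037523), Eif2ak2 (ENSMUSG00000024079), Zbp1 (ENSMUSG00000027514), Cgas (ENSMUSG00000032344) and Sting1 (ENSMUSG00000024349). They were taken by symbol and make up 9 of the 33696 features in each matrix.

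Colonic stromal cells came from mice with floxed alleles of Il10ra, the ligand-binding chain of the IL-10 receptor. The control group (Il10ra ff) carried no Cre, and the other group (Il10ra ff; Pdgfra-cre, called Cre here) also carried a recombinase driven by Pdgfra, a gene of fibroblasts. Each genotype had 2 mice of 6 months and gave 1 library, in which mice cannot be told apart. Living cells had been sorted for Podoplanin and against CD45, CD31 and EpCAM, so leukocytes, endothelium and epithelium were selected against.

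Cells recognise misplaced nucleic acids through a small set of receptors. MDA5 (Ifih1) binds long double-stranded RNA and signals through MAVS on mitochondria, TLR3 reads double-stranded RNA inside endosomes, and cGAS reads DNA and makes a cyclic dinucleotide that activates STING. These routes lead to type I interferon, and interferon in turn raises transcription of many of the sensors. PKR (Eif2ak2) and ZBP1 are effectors: PKR halts translation when it binds double-stranded RNA, and ZBP1 binds Z-form nucleic acids and can start necroptosis.

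With 1 library per genotype the genotypes could not be tested against each other, so no p-value is given and no difference has a replicate check. Every difference below is one between 2 libraries. Levels are in CPM, the UMIs (unique molecular identifiers, 1 per captured transcript) of a gene summed over a class and scaled to all UMIs of that class in that library. Their intervals are 95% intervals for counting error only and do not cover variation between mice. A gene counted as higher or lower when its log2 ratio of Cre over control, with 1 CPM added to each side, passed 1.5-fold, which is a rule of size.

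The control library held 11380 barcodes and 76570611 UMIs and the Cre library 8627 barcodes and 66845139 UMIs. After filters 10657 and 8302 cells remained. The libraries shared 115 barcodes, 1.33% of the smaller one. A cell counted as a fibroblast with a UMI of at least 3 of 7 fibroblast markers, Pdgfra, Col1a1 and Pdpn among them, and no gate of another cell type passed. This gave 9606 control and 7727 Cre fibroblasts, with median depths of 6621 and 7563 UMIs. Subepithelial-like fibroblasts (Sox6 and a further marker such as Bmp3) numbered 1212 and 443, lamina propria-like fibroblasts (Adamdec1, Edil3, Frmpd4, Hapln1) 3391 and 2203, and adventitial-like fibroblasts (Pi16, Cd81, Dpp4, Ackr4, Has1) 3018 and 3971. A further 1985 and 1110 fibroblasts met no class or several. Smooth muscle-like cells numbered 712 and 184. Between 20.1% and 39.3% of the cells of a fibroblast class had exactly the 2 markers needed, so many cells lie near the gate.

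The classes did not hold the same clusters in both libraries. When all cells were clustered together, lamina propria-like cells of the control library fell mostly into clusters 4 (35.4%) and 1 (31.7%), and those of the Cre library into cluster 0 (77.8%). Adventitial-like cells fell mostly into clusters 2 (43.3%) and 6 (25.3%) in the control library and into clusters 3 (34.6%) and 7 (19.4%) in the Cre library. Cluster 5 held 85.8% and 92.3% of the subepithelial-like cells. Col15a1, fixed as an adventitial marker, was among the leading genes of cluster 1, and Hbb-bs, a haemoglobin gene, led cluster 0. Ratios within clusters are therefore given after those within classes.

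Il10ra itself had 1 UMI in control fibroblasts (0.0152 CPM, interval 0.000385 to 0.0848) and 5 in Cre fibroblasts (0.0810 CPM, interval 0.0263 to 0.189). At this level a loss could not be detected, so the counts check neither the deletion nor the labels.

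All 9 genes were detected in the fibroblasts of both libraries. In pooled fibroblasts 6 of the 9 were at least 1.5-fold higher in the Cre library (Ifih1, Dhx58, Ddx60, Sting1, Eif2ak2 and Zbp1), 0 were as much lower, and Cgas, Tlr3 and Mavs stayed within 1.5-fold. The median log2 ratio of the 9 was 0.83, against -0.044 over the 9034 genes that averaged 10 CPM or more. Among those 9034 genes the share past 1.5-fold was 3.83% on the higher side and 3.14% on the lower side. The minimum of 10 CPM was reached by 5 of the 9 genes, of which 4 were higher. A minimum of 3 CPM was reached by all 9, and at that minimum 4.55% of 11743 genes were higher. The count for the 9 rests on how low values are treated: with 10 CPM added in place of 1, Ifih1 and Zbp1 remained past 1.5-fold, a count of 2.

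**Figure D1:**
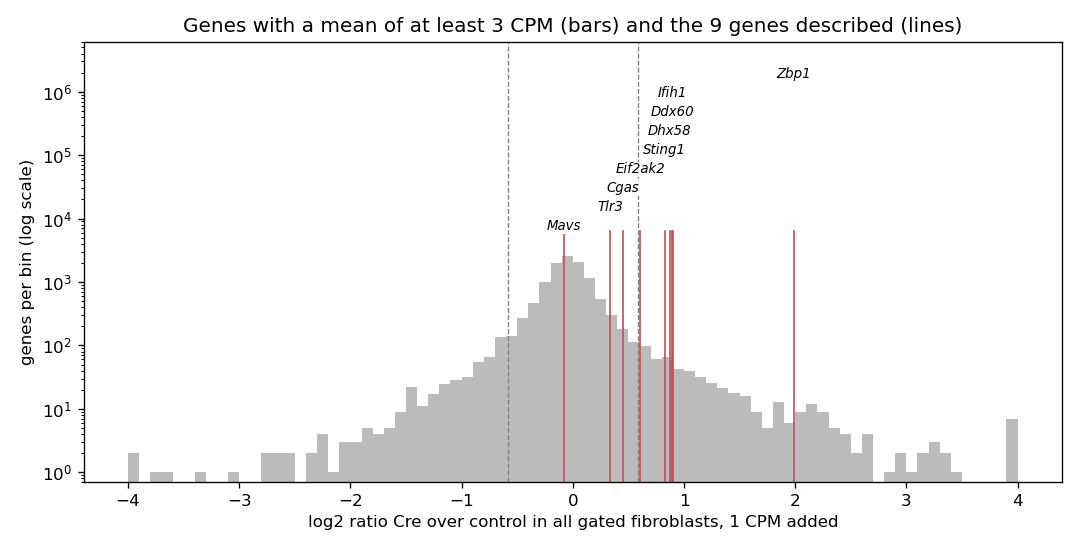
Number of genes (bars, log scale) in each 0.1 step of the log2 ratio of Cre over control in pooled fibroblasts, for genes averaging 3 CPM or more, with red lines for the 9 genes, dashed lines at 1.5-fold and values beyond 4 placed in the outermost bins. Zbp1 stood at 1.99, Mavs at -0.08, and the other 7 between 0.34 and 0.90.

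Stretches of promoter are shown because several of these genes differed together between the libraries. RefSeq windows of build GRCm38.p6, from 250 bases before to 50 bases after the start of the gene, were searched for 6 of the 9 genes. No window of Dhx58, Zbp1 or Sting1 is described, which does not say whether a RefSeq window exists for them. For the described genes, windows on the chromosome of Sting1 were left out. A window of Sting1 would therefore not appear here even if there is one. The windows were searched on both strands for GAAANNGAAA, the core of the interferon-stimulated response element, and for TTCNNNGAA, the core of the gamma-activated site, where N is any base. The first was found in the windows of Ifih1, Eif2ak2 and Ddx60 and in 3.44% of all 32851 windows. The second was found in that of Eif2ak2 and in 8.3% of all windows. In the lines below capitals mark GAAANNGAAA. The Ifih1 stretch covers bases 21 to 50 after the start (chr2:62646206-62646235, minus strand) and that of Eif2ak2 bases 9 to 38 (chr17:78882535-78882564, minus strand). Those of Ddx60 (chr8:61927987-61928086, plus strand) and Mavs (chr2:131233963-131234062, plus strand) are the 100 bases before the start.
Ifih1: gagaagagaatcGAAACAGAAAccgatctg
Eif2ak2: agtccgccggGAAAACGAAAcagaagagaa
Ddx60: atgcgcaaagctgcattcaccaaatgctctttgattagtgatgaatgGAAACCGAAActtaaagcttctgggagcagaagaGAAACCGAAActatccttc
Mavs: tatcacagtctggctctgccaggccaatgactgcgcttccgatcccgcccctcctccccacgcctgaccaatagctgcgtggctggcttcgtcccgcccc
Ddx60 held the core at 2 places with the same letters, ending 44 and 10 bases before the start. The windows of Mavs, Tlr3 and Cgas held neither core, which says only that these letters are not in these windows. A match is a description of the sequence and no evidence of binding.

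Among the RNA sensors Ifih1 had 1992 UMIs in control and 3544 in Cre fibroblasts. Its level was 30.3 CPM (interval 29.0 to 31.7) in control and 57.4 CPM (55.5 to 59.3) in Cre fibroblasts, which is 1.89-fold higher (1.79 to 2.00). By class it went from 27.8 to 56.1 CPM in adventitial-like (2.02-fold, 1.83 to 2.23) and from 33.2 to 63.8 CPM in lamina propria-like fibroblasts (1.92-fold, 1.76 to 2.11). The ratio was smallest in subepithelial-like fibroblasts, where Ifih1 was at 31.5 and 43.5 CPM (1.38-fold, 1.12 to 1.69). When each cell was thinned to 2000 UMIs this last ratio turned to a log2 value of -0.16, so its direction is not settled. The sign was kept in 10 of 11 alternatives. Within cluster 5, which held most of the subepithelial-like cells, the ratio of Ifih1 was 1.55 (1.26 to 1.90). In smooth muscle-like cells the level of Ifih1 was lower in each library than in fibroblasts, at 15.2 and 34.4 CPM, and the ratio between the libraries was 2.26-fold (1.52 to 3.31).

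In the control library the 3 fibroblast classes were close to each other in Ifih1. The level in lamina propria-like cells was 1.19 times that of adventitial-like cells (1.07 to 1.33), and that of subepithelial-like cells 1.13 times (0.976 to 1.31), which does not differ beyond counting error. In the Cre library the subepithelial-like level was 0.775 times the adventitial-like one (0.650 to 0.917) and so stood lowest of the 3. The highest count in any fibroblast, 25 UMIs of Ifih1, was in an adventitial-like cell of the control library.

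Dhx58, which encodes LGP2, a helicase that tunes MDA5 signalling, was scarce in both libraries. It had 202 and 398 UMIs, or 3.07 CPM (2.66 to 3.53) and 6.45 CPM (5.83 to 7.11), a 2.10-fold difference (1.77 to 2.50). Lamina propria-like cells went from 3.55 to 8.33 CPM (2.35-fold, 1.79 to 3.09) and adventitial-like cells from 2.83 to 5.89 CPM (2.08-fold, 1.54 to 2.87). In subepithelial-like cells 28 and 13 UMIs gave 3.10 and 3.87 CPM, and the interval of the ratio, 0.593 to 2.49, holds no difference. The 3 control classes lay between 2.83 and 3.55 CPM and could not be ordered at this depth.

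Ddx60 encodes a helicase reported to take part in antiviral RNA sensing. It was at 6.56 CPM (5.95 to 7.21) in control and 13.0 CPM (12.2 to 14.0) in Cre fibroblasts, 1.99-fold higher (1.77 to 2.24). The ratio was 2.51-fold (1.98 to 3.22) in adventitial-like, 2.13-fold (1.78 to 2.55) in lamina propria-like and 1.85-fold (1.22 to 2.79) in subepithelial-like fibroblasts, and these intervals overlap. Of the 3 fibroblast classes lamina propria-like cells had the highest level in each library, 8.14 and 17.3 CPM. This was 1.85 times (1.43 to 2.41) and 1.57 times (1.34 to 1.83) that of adventitial-like cells. The subepithelial-like level was 0.831 times (0.614 to 1.11) and 0.722 times (0.510 to 1.001) the lamina propria-like one, which does not differ beyond counting error.

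Tlr3, the endosomal receptor for double-stranded RNA, differed less. It was at 7.33 CPM (6.69 to 8.02) and 9.52 CPM (8.77 to 10.3), a ratio of 1.30 (1.15 to 1.47). The ratio was 1.52 (1.21 to 1.93) in adventitial-like and 1.37 (1.13 to 1.66) in lamina propria-like cells. In subepithelial-like cells it was 1.07 with an interval of 0.654 to 1.72. Lamina propria-like cells had more Tlr3 than adventitial-like cells in control (1.69 times, 1.33 to 2.16) and Cre cells (1.52 times, 1.26 to 1.83).

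Mavs, the mitochondrial adaptor behind MDA5, did not differ beyond counting error in pooled fibroblasts. It had 777 and 689 UMIs, or 11.8 CPM (11.01 to 12.7) and 11.2 CPM (10.3 to 12.02), and the interval of the ratio, 0.851 to 1.05, leaves out a 1.5-fold difference either way. In lamina propria-like cells it was at 12.3 and 10.1 CPM (0.820-fold, 0.676 to 0.990) and in adventitial-like cells at 9.80 and 10.98 CPM (1.12-fold, 0.938 to 1.34). Subepithelial-like cells had 15.6 and 14.6 CPM and the control level there was 1.60 times that of adventitial-like cells (1.27 to 2.00).

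**Figure D2:**
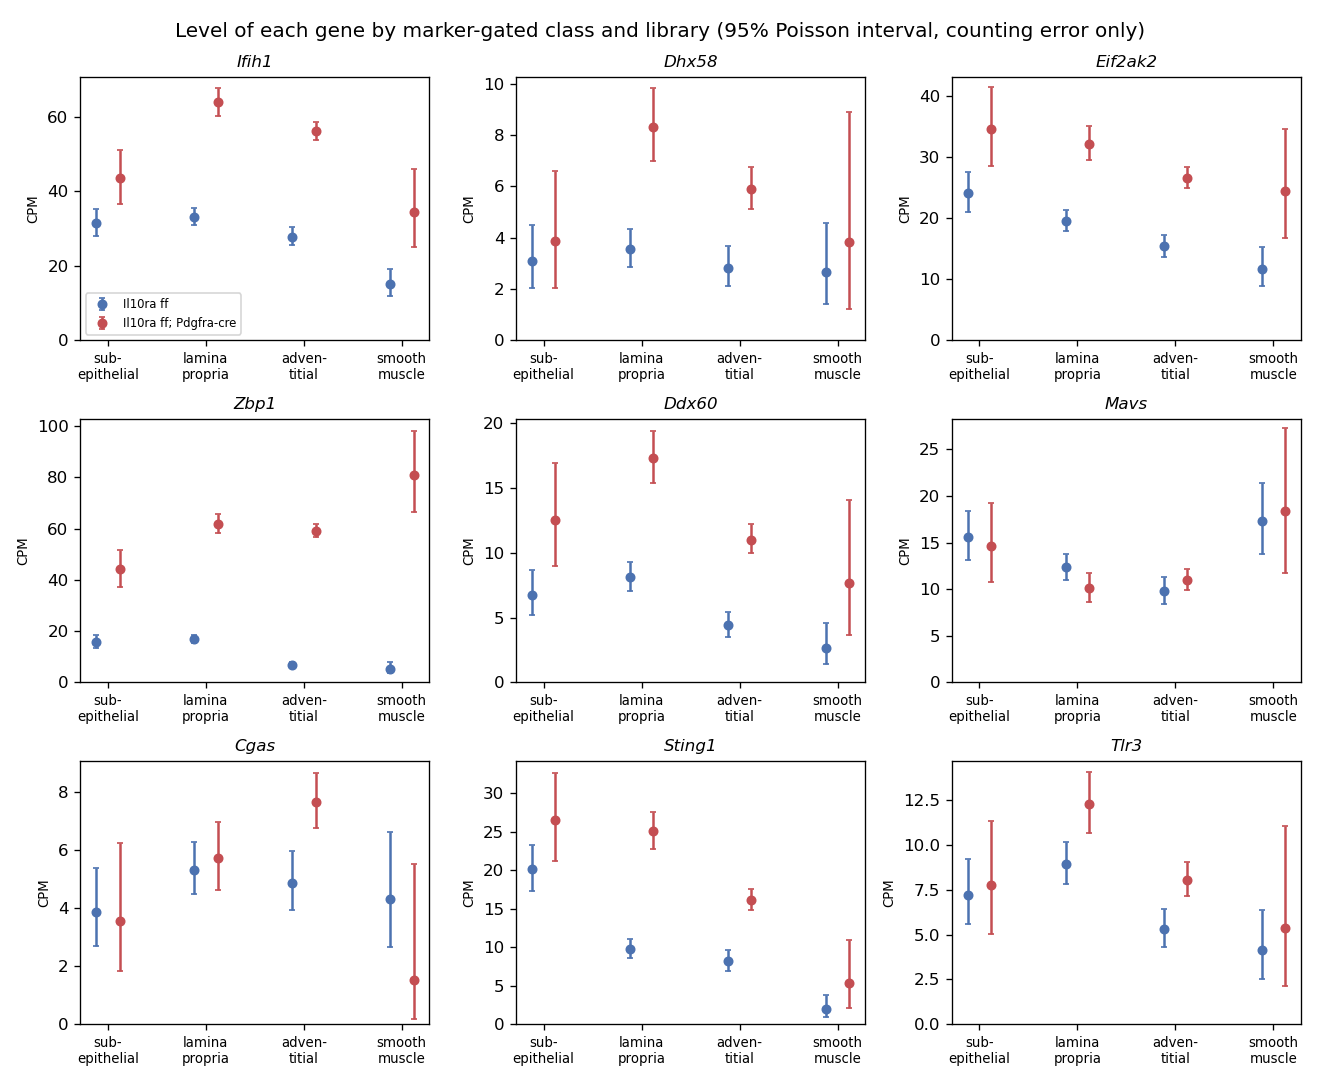
CPM of each gene by marker-gated class (x axis) in the control library (blue) and the Cre library (red), with 95% Poisson intervals for counting error; each panel has its own scale starting at 0. Zbp1 stood higher in the Cre library in all 4 classes, while the intervals of Mavs overlapped in each.

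Of the effectors, Eif2ak2 differed by a similar amount in the 3 fibroblast classes, with overlapping intervals. It was at 18.4 CPM (17.4 to 19.5) in control and 28.6 CPM (27.3 to 30.02) in Cre fibroblasts, 1.55-fold higher (1.44 to 1.67). The ratios were 1.72 (1.51 to 1.97) in adventitial-like, 1.65 (1.46 to 1.86) in lamina propria-like and 1.44 (1.14 to 1.81) in subepithelial-like fibroblasts. Subepithelial-like cells, at 24.1 and 34.5 CPM, exceeded adventitial-like cells 1.56 times (1.30 to 1.87) and 1.30 times (1.06 to 1.58), but in the Cre library did not differ from lamina propria-like cells beyond counting error (1.07 times, 0.870 to 1.31).

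Zbp1 had the largest ratio of the 9 genes in pooled fibroblasts, in each of the 3 fibroblast classes and in smooth muscle-like cells. Its UMIs numbered 899 in control and 3540 in Cre fibroblasts. The level was 13.7 CPM (12.8 to 14.6) and 57.3 CPM (55.5 to 59.2), 4.19-fold higher (3.89 to 4.51). The size differed between classes beyond counting error. Adventitial-like fibroblasts went from 6.65 to 59.1 CPM (8.89-fold, 7.43 to 10.7), lamina propria-like from 16.9 to 61.9 CPM (3.67-fold, 3.28 to 4.12) and subepithelial-like from 15.7 to 44.1 CPM (2.80-fold, 2.21 to 3.55). The classes differed most on the control side: there lamina propria-like cells had 2.53 times (2.08 to 3.11) and subepithelial-like cells 2.37 times (1.85 to 3.03) the level of adventitial-like cells. In the Cre library these values were 1.05 (0.971 to 1.13) and 0.745 (0.626 to 0.881).

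Zbp1 was also higher outside the fibroblasts. Smooth muscle-like cells had 26 control and 106 Cre UMIs, or 5.36 CPM (3.50 to 7.85) and 81.0 CPM (66.3 to 98.0), 15.1-fold higher (9.77 to 24.2). These cells had 38.9 and 92.5 CPM of Pdgfra, whose promoter drives the Cre, against 363 and 354 CPM in fibroblasts. Glia-like cells (66 and 114) had 10 and 79 UMIs of Zbp1, a ratio of 3.97 (2.05 to 8.59), with Pdgfra at 16.2 and 11.4 CPM. Lymphatic endothelium-like cells (44 and 43) had 0 and 11 UMIs, at least 4.85-fold higher when the 0 is set to 3 UMIs, with Pdgfra at 88.7 and 18.0 CPM. Leukocyte-like cells (7 and 16) had 2 UMIs in each library, a ratio of 0.781 (0.0566 to 10.8).

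**Figure D3:**
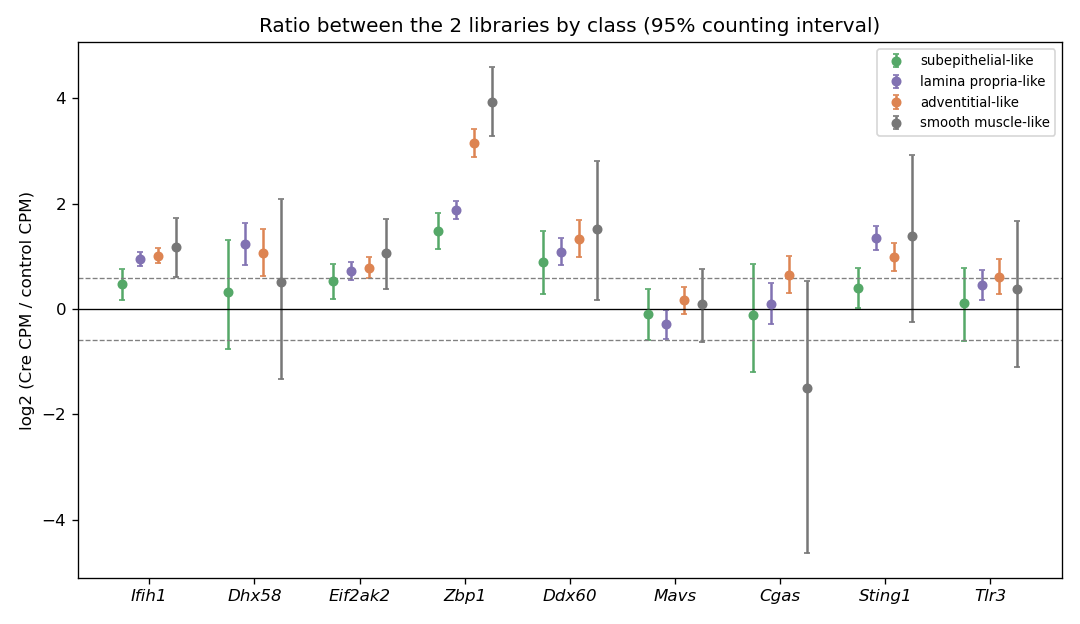
Log2 of the ratio of Cre CPM over control CPM for each gene in 4 classes, with 95% intervals for counting error and dashed lines at 1.5-fold. Zbp1 lies highest in every class, and the adventitial-like ratio of 8.89 lies above those of the other fibroblast classes.

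Of the DNA route, Cgas had ratios whose intervals overlapped between the classes. It was at 4.95 CPM (4.42 to 5.51) in control and 7.11 CPM (6.46 to 7.81) in Cre fibroblasts, a ratio of 1.44 (1.24 to 1.66). Adventitial-like cells had 4.87 and 7.65 CPM (1.57-fold, 1.24 to 2.01), and fibroblasts of no single class 5.05 and 9.47 CPM (1.88-fold, 1.30 to 2.71). In lamina propria-like cells the ratio was 1.07 (0.818 to 1.40) and in subepithelial-like cells 0.921 (0.435 to 1.82). With each fibroblast class weighted alike the log2 ratio of the pool was 0.22 in place of 0.45.

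Sting1, the adaptor behind cGAS, was at 10.9 CPM (10.1 to 11.7) and 20.1 CPM (19.0 to 21.3), 1.85-fold higher (1.68 to 2.03). Of the 3 fibroblast classes lamina propria-like cells had the largest ratio, from 9.84 to 25.1 CPM (2.55-fold, 2.18 to 2.99), and adventitial-like cells went from 8.22 to 16.2 CPM (1.97-fold, 1.65 to 2.37). Subepithelial-like cells differed least, with 20.2 and 26.5 CPM (1.31-fold, 1.01 to 1.70). Of these classes the subepithelial-like one thus had the highest control level of Sting1, at 2.45 times (1.97 to 3.06) the adventitial-like level, and in the Cre library subepithelial-like and lamina propria-like cells stood at nearly the same level. Smooth muscle-like cells had little of it, 10 and 7 UMIs.

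Counted by class, 6 of the 9 genes passed 1.5-fold on the higher side in lamina propria-like fibroblasts, as did 5.36% of 9187 genes there, with a median log2 ratio of 0.92 against 0.037 over measured genes. In adventitial-like fibroblasts 6 of 9 were higher, against 4.36% of 8420 genes, with a median of 0.85 against -0.011, and all 9 had a higher CPM in the Cre library. In subepithelial-like fibroblasts 2 of 9, Zbp1 and Ddx60, were higher, against 4.76% of 9409 genes, with a median of 0.38 against 0.050. In each of the 3 classes 0 were as much lower. These counts take all 9 genes with no minimum, whereas the shares are of genes averaging 10 CPM or more. Of the genes reaching 10 CPM in a class, 5 of 7 were higher in lamina propria-like, 4 of 5 in adventitial-like and 1 of 5 in subepithelial-like fibroblasts. The subepithelial-like count was 4 when classes were taken from clusters or cells were thinned to 2000 UMIs, and 1 with 10 CPM added. The adventitial-like count fell to 2 with 10 CPM added.

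In pooled fibroblasts the shares of cells with a UMI were also higher where the levels were. A UMI of Zbp1 was found in 7.90% of control and 23.8% of Cre fibroblasts, and 2 or more in 1.12% and 10.0%. Since the Cre fibroblasts were deeper, each cell was also thinned to 2000 UMIs, which left out 796 control and 432 Cre fibroblasts. The thinned shares for Zbp1 were 2.55% and 8.91%. For Ifih1 the shares were 16.4% and 28.6%, or 5.86% and 9.92% thinned. Those of Mavs were 7.50% and 8.23%, or 2.24% and 2.29% thinned, so the gap seen at full depth closed at equal depth. None of the classes is known to lack these genes, so a share from free RNA could not be measured.

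At 2000 UMIs per cell a UMI of at least 1 of the 9 genes was found in 18.05% of control fibroblasts (17.2 to 18.9) and 30.8% of Cre fibroblasts (29.7 to 31.8). At least 2 different genes of the 9 were seen together in 1.98% (1.69 to 2.29) and 5.77% (5.25 to 6.33) of cells. At least 3 were seen in 0.125% (0.0623 to 0.223) and 0.960% (0.749 to 1.21). The summed level of the 9 was 107 and 211 CPM in pooled fibroblasts, and 85.3 and 202 CPM in adventitial-like cells, the class with the lowest control sum of the 3.

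**Figure D4:**
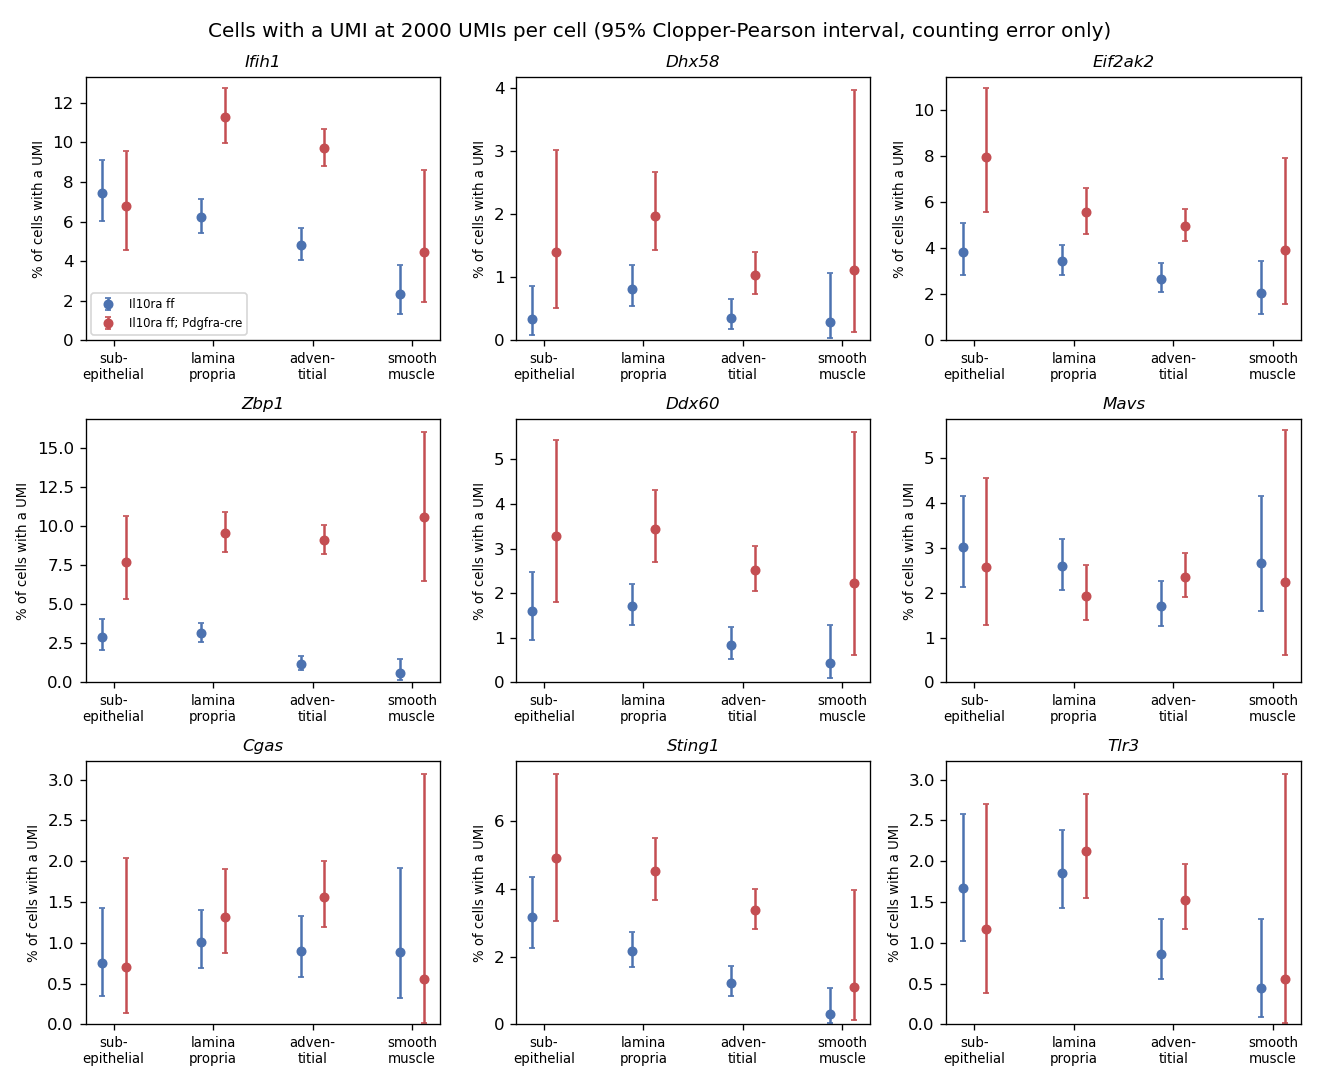
Percent of cells with a UMI of each gene at 2000 UMIs per cell, by class and library (control blue, Cre red), with 95% Clopper-Pearson intervals; each panel has its own scale starting at 0. The intervals of Zbp1 do not overlap between libraries in any of the 4 classes, while for Ifih1 those of the subepithelial-like cells do.

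Within clusters of the joint clustering the ratios of the genes were less uniform than in the pool. Of the 22 clusters 12 had at least 100 cells from each library. Ifih1, Dhx58 and Eif2ak2 had a higher CPM in the Cre library in 12 of these 12, Zbp1, Ddx60, Sting1 and Tlr3 in 11, Cgas in 6 and Mavs in 5. The interval of the ratio was above 1 in 10 clusters for Ifih1 and for Zbp1, 7 for Eif2ak2, 6 for Ddx60, 2 for Dhx58, 1 for Tlr3 and 0 for Cgas and Mavs. The ratio of Ifih1 lay between 1.21 and 2.18. For Sting1 the ratio lay between 0.911 and 2.55 with an interval above 1 in 3 clusters, so much of its pooled difference could not be resolved within clusters at this depth. In those of the 12 clusters that were mostly of lamina propria-like cells the ratio of Sting1 was below the class value of 2.55. It was 1.77 (0.955 to 3.73) in cluster 0, 1.93 (1.10 to 3.20) in cluster 1 and 0.911 (0.552 to 1.51) in cluster 11. The intervals of clusters 0 and 1 hold the class value. Clusters 4 and 10, with 35.4% and 11.8% of the control lamina propria-like cells, had too few Cre cells (36 and 12) to be included.

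Zbp1 varied most between clusters. In clusters 2 and 6, both led by genes such as Pi16 and mostly of adventitial-like cells, it went from 4.90 to 71.0 CPM (14.5-fold, 10.5 to 20.3) and from 3.94 to 53.0 CPM (13.4-fold, 8.08 to 23.8). Cluster 3, led by Npy1r, Hp and Cfb and mostly of Cre cells, had 14.7 and 109 CPM (7.39-fold, 4.39 to 13.5), the highest Zbp1 level in the Cre library among the 12. Other clusters of mostly adventitial-like cells had smaller ratios: 1.60 (0.9498 to 2.89) in cluster 7, led by Ptn and Myoc, and 1.84 (1.13 to 3.18) in cluster 8, led by Grem1 and Ackr4. The adventitial-like value of 8.89 therefore joins cells with very different ratios.

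Among the clusters that held lamina propria-like cells the ratio of Zbp1 was 4.83 (2.62 to 10.1) in cluster 0, which held 110 control and 1936 Cre cells, and 1.99 (1.26 to 3.04) in cluster 1, with 1701 and 183. Neither cluster had a lamina propria marker among its 10 leading genes, and as a whole cluster 1 met no single class. In cluster 11, led by Adamdec1 and with 301 and 343 cells, Zbp1 was at 12.1 and 10.5 CPM, and the interval of the ratio, 0.456 to 1.64, holds no difference. Cluster 5, the subepithelial-like one, had a ratio of 2.78 (2.18 to 3.56) and cluster 9, the smooth muscle-like one, 15.9 (10.2 to 25.7).

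**Figure D5:**
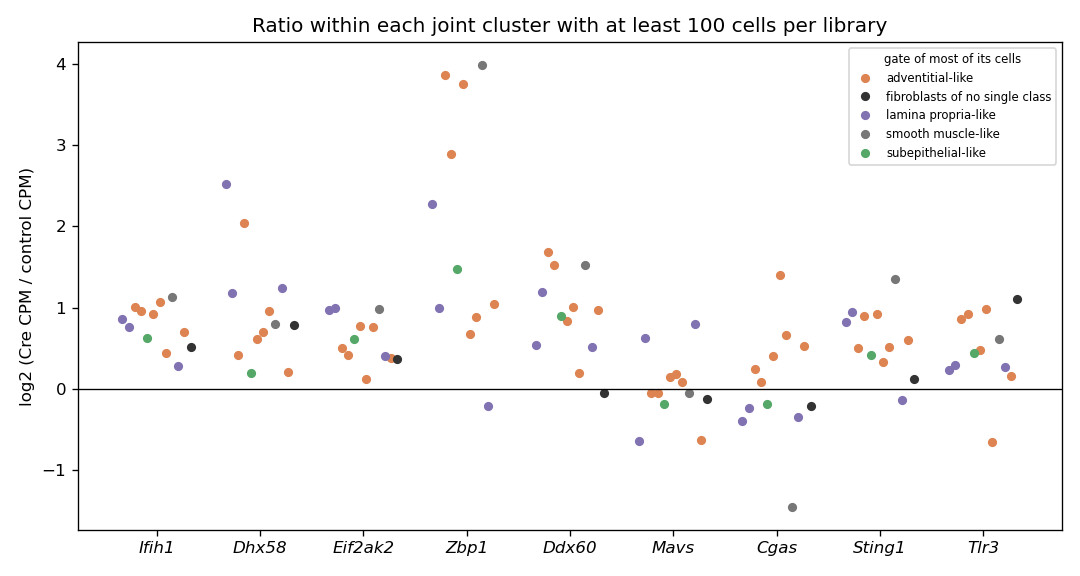
Log2 of the ratio of Cre CPM over control CPM of each gene within each of the 12 joint clusters with at least 100 cells per library (1 point per cluster, coloured by the class of most of its cells; a cluster with 0 control UMIs of a gene has no point). Zbp1 spreads from a ratio of 0.863 to 15.9, and Ifih1 and Eif2ak2 lie above 0 in every cluster.

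Markers of other cells differed between the libraries as well. In gated fibroblasts the summed level of 10 leukocyte markers was 5.37 CPM in the control library, with Cd3e and S100a9 at 0 UMIs. It was 9.77 CPM in the Cre library, with all 10 detected. Within the list S100a8 went the other way, from 28 to 6 UMIs, as did Ptprc, from 4 to 2 UMIs. Without cells holding a UMI of any of the 10 markers, the count of higher genes was still 6. The log2 ratio of Zbp1 was then 1.98 in place of 1.99. The 4 red cell markers summed to 1.45 and 93.9 CPM, and to 1.58 and 332 CPM in lamina propria-like cells. Without cells holding a UMI of these, the count was again 6 and the ratio of Zbp1 1.99. Mesothelium markers summed to 4.93 and 19.9 CPM, smooth muscle markers to 336 and 224 CPM and pericyte markers to 71.8 and 98.3 CPM. The lower pooled sum of the smooth muscle markers was not seen within the classes. Their sum was 1648 and 2264 CPM in subepithelial-like, 127 and 146 CPM in lamina propria-like and 70.6 and 70.8 CPM in adventitial-like cells. Within the mesothelium list Wt1 alone was higher, from 3.39 to 19.0 CPM, and the other markers were lower. In the pericyte list Rgs5 went from 29.2 to 54.7 CPM, while Cspg4 went the other way, from 17.1 to 10.2 CPM. Of the blood endothelium list 5 of 6 markers were detected in each library (30.3 and 31.5 CPM) and Cdh5 was at 0 UMIs, and of the epithelium list 5 of 6 (4.11 and 6.02 CPM), with Cdh1 at 0. The part of the mesothelium, smooth muscle, pericyte, endothelium and epithelium markers in the results was not tested.

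The pathway around the 9 genes was described with a list of 121 further genes, of which 120 were in the files and 86 reached a mean of 10 CPM in fibroblasts. In the Cre library 19 of these passed 1.5-fold on the higher and 0 on the lower side, against 3.83% and 3.14% of all 9034 genes, and their median log2 ratio was 0.07 against -0.044. Without the genes that were listed solely as examples of the interferon response, 14 of 81 were higher. By role, the higher genes were 4 of 13 further RNA sensors and helicases, 5 of 11 DNA sensors, 2 of 12 kinases and transcription factors, 1 of 8 adaptors, 1 of 9 nucleases and brakes, 1 of 5 cell death genes, 0 of 8 genes of the STING route, 0 of 7 of the PKR group, 0 of 6 RNA sensor regulators and 0 of 2 interferon receptor chains. The 5 DNA sensors, named after their values were seen, were Ifi203, Ifi204, Ifi207, Ifi211 and Mndal, close paralogs whose reads may be shared.

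The highest ratios of the list included those of Oas1a, which makes the messenger that activates RNase L, and Ifit1, which binds viral RNA ends. Oas1a was at 2.68 and 19.6 CPM (7.34-fold, 6.26 to 8.64) and Ifit1 at 11.3 and 59.2 CPM (5.22-fold, 4.83 to 5.66). The 3 lowest were the helicase Dhx29 (0.703-fold, 0.634 to 0.779), Banf1, which shields DNA from cGAS (0.773-fold, 0.748 to 0.799), and Eif2ak3, the endoplasmic reticulum kinase that shares its substrate with PKR (0.869-fold, 0.807 to 0.935).

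Neighbours of the 9 in the pathway differed among themselves. Rigi, the sensor of short RNA with a 5′ triphosphate, was at 23.0 and 30.8 CPM (1.34-fold, 1.25 to 1.43) in the pool, a smaller ratio than that of Ifih1. This pooled ratio lay below that of each fibroblast class. Rigi had ratios of 1.54 (1.37 to 1.72) in lamina propria-like and 1.54 (1.36 to 1.76) in adventitial-like cells, again smaller than those of Ifih1. In subepithelial-like cells its ratio (interval 1.23 to 1.82) was above the 1.38 of Ifih1 (1.12 to 1.69), with overlapping intervals. Irf7, an interferon-induced transcription factor, was at 21.4 and 61.4 CPM (2.87-fold, 2.70 to 3.05). Irf3 (29.9 and 31.7 CPM) and the kinase Tbk1 (27.8 and 29.7 CPM) were nearly level in the pool. By class Irf3 had ratios of 1.30 (1.08 to 1.54) in subepithelial-like, 1.31 (1.18 to 1.46) in lamina propria-like and 1.12 (0.996 to 1.26) in adventitial-like cells. Ticam1, the adaptor of TLR3, was at 6.85 and 6.66 CPM, and Trex1, a nuclease that removes cytosolic DNA, at 1.72 and 1.93 CPM.

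The partners of Zbp1 in necroptosis did not share its ratio. Mlkl, the pore-forming protein, was at 11.1 and 17.8 CPM (1.60-fold, 1.46 to 1.76) and was higher in each of the 3 classes, by 2.23-fold (1.70 to 2.92) in subepithelial-like, 2.13-fold (1.73 to 2.63) in adventitial-like and 1.86-fold (1.61 to 2.14) in lamina propria-like cells. Ripk3, the kinase that links the pair, was at 4.96 and 4.45 CPM in the pool (0.898-fold, 0.762 to 1.06). Its classes went opposite ways, with 2.49-fold (1.72 to 3.70) in adventitial-like and 0.615-fold (0.459 to 0.818) in lamina propria-like cells. The interferon genes on the list were not seen in fibroblasts, and other interferon genes were not examined. Ifnb1, Ifna4, Ifne, Ifnl2 and Ifnl3 had no UMI in either library (0 counts, an upper limit of 0.0456 CPM for control and 0.0486 CPM for Cre fibroblasts from 3 counts).

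For the 5 genes that averaged 10 CPM or more in fibroblasts, the genes most alike in pattern were sought over 18 points, 9 classes in each of the 2 libraries, among 9034 genes. The points of a library share its preparation and depth. Each class weighed alike, also small ones such as the glia-like (66 and 114 cells) and interstitial cell of Cajal-like (37 and 47 cells) classes. Zbp1 had 0 control UMIs in the interstitial cell of Cajal-like and lymphatic endothelium-like classes, so some points lie at the floor. Irf9 and Rnf213 were most like Ifih1 (Pearson r of 0.87 for each), Gbp4 and H2-Q5 most like Eif2ak2 (0.88 and 0.86), and Tap1 and Vps16 most like Zbp1 (0.89 and 0.87). Ctnnb1 and Rbm17 were most like Mavs (0.88 and 0.87), and Cox16 and Cbfa2t3 most like Sting1 (0.85 and 0.84). Irf9, Rnf213, Gbp4, H2-Q5 and Tap1 were themselves higher in Cre fibroblasts, with Tap1 at 20.7 and 78.5 CPM, whereas Cox16, at 99.0 and 99.9 CPM, was not. Likeness was scored over points of both libraries. A shared difference between the libraries is therefore part of what selected these genes and is no separate result.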

How the data were processed

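Single-cell 5′ libraries of sorted colonic stromal cells were analysed, 1 per genotype. The deposited matrices hold raw UMI counts as whole numbers for barcodes kept by the authors. Cell Ranger 8.0.1 and build GRCm39 are named per the submitters' processing notes. Where 26 symbols stood on more than 1 feature, the first was used.

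Cells needed 500 or more detected genes and no more than 10% of UMIs from mitochondrial genes. Scrublet (scanpy 1.11.5, expected rate 8%) marked 393 control and 111 Cre doublets, which were removed. Each library set its own score threshold (0.326 and 0.404), so these numbers do not compare the libraries. Classes are marker gates on each cell, and the subset of markers and the numbers needed were set after marker levels had been seen. Other cell types needed 3 markers. For fibroblast classes 2 were needed, of 5 subepithelial (Sox6 among them), 4 lamina propria or 5 adventitial markers. No pericyte gate was used, so any pericytes lie in the other classes or in none. Joint clusters came from 2000 variable genes without the described genes, the pathway list and interferon-type genes, with 30 components, 15 neighbours and leidenalg 0.10.2 at resolution 1.

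Counts were summed per class and library. Levels carry exact Poisson intervals, ratios exact binomial ones and shares Clopper-Pearson ones (scipy 1.17.1), each at 95% and for counting error only. On simulated counts of 9040 genes for Cre over control in fibroblasts, 67 of 67 genes set 2-fold higher and 21 of 67 set 1.5-fold higher were called, and 0 of 8840 unchanged ones. Both simulated libraries came from a shared profile with counting error only. The 0 therefore says nothing about variation between mice, libraries or class mixes.

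The described genes and all lists were chosen with earlier results of these data known. The genes named are the 9, the 3 highest and 3 lowest ratios of the pathway list at a mean of at least 10 CPM, 8 neighbours in the pathway (Rigi, Tbk1, Irf3, Irf7, Ticam1, Trex1, Ripk3, Mlkl), and the 2 genes most alike per gene; of the 3 highest, 1 is not reported here. Promoter windows are of GRCm38.p6, another build than that of the counts, and served for sequence only. No gene locations of GRCm39 were used here. Windows of 6 of the 9 genes are described, and any on the chromosome of Sting1 were left out.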

Additional observations from a re-analysis of the deposited data

How the results depend on the processing

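No paired analysis was possible because each genotype gave 1 library, and no replicate could be left out for the same reason. In pooled fibroblasts the count of 6 higher genes was kept under each alternative except 10 CPM added, where it was 2 and the median log2 ratio 0.44 in place of 0.83. With 10 CPM added the counts were also 2 in place of 6 in adventitial-like and 1 in place of 2 in subepithelial-like fibroblasts, since a larger addition shrinks the ratios of low genes. The subepithelial-like count was 4 with classes from clusters and 4 with cells thinned to 2000 UMIs. Of 405 log2 ratios of the 9 genes under planned and added alternatives, 374 stayed within the counting interval of the reported one, 31 moved beyond it and 0 of those past 1.5-fold changed sign. Zbp1 in pooled fibroblasts ranged from 1.51 to 2.03 and Mavs from -0.10 to 0.01. Thinning moved the subepithelial-like ratio of Ifih1 to -0.16, and the cause was not tested. No scaling shifted the median of all genes in pooled fibroblasts beyond -0.05. The alternatives without cells holding red cell marker UMIs and with a minimum of 3 CPM were chosen after seeing the data. Depth limits Dhx58 and Cgas most, and classes other than fibroblasts and smooth muscle held too few cells for most of the 9 genes.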
